A study of Mus musculus with 39 samples.

Results

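The nuclear genes of oxidative phosphorylation were examined in subcutaneous adipose tissue of mice on different diets. They were chosen by gene name (Ndufa, Ndufb, Ndufc, Ndufs or Ndufv, Sdha to Sdhd, Uqcr, Cox4 to Cox8, and Atp5), with the muscle and brown fat isoforms Cox7a1 and Cox8b left out. This gave 88 of the 29411 gene names on the array. Of these, 37 were subunits of complex I, 4 of complex II, 7 of complex III, 15 of complex IV and 15 of complex V, assigned by name. The other 10 names that the pattern took were not assigned as subunits and were counted apart (Ndufaf1, Ndufaf2, Ndufaf3, Ndufaf4, Ndufa4l2, Cox4nb, Cox7a2l, Atp5s, Atp5sl and Atp5l2). They hold assembly factors and relatives of subunits, but also Cox4nb, which RefSeq names Emc8, a subunit of the ER membrane protein complex that is here by its older name alone, and Atp5l2, which RefSeq names as a pseudogene. None of the 13 subunits encoded by mitochondrial DNA was found among the gene names, so only the nuclear part of each complex was measured.

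Expression was measured with 39 Agilent 1-colour arrays, each holding Cy3-labelled RNA of a single diet at a single time point. All mice were C57BL/6J, put on the diets once weaned, at 3 to 4 weeks of age, with 30 animals to a diet. The low-fat control diet (LFC, 10 arrays) had 10% of its calories from fat. The high-fat diet (HFC, 11 arrays) had 60% of calories from fat with added sucrose, and HF5, HF20 and HF75 (6 arrays each) were that high-fat diet with 5, 20 or 75 µg of KAL-1, an aqueous formulation of plant origin. LFC and HFC shared 10 time points, 4 of them early (Day 6 through Week 0) and the other 6 late, spaced 3 weeks apart up to Week 18 and starting at Week 3. The study's methods count the weeks from Day 14 on, so the Day 14 and Week 0 samples stand for equal times on the diet, and they were kept as separate time points here, as labelled. HFC had a Day 1 array besides, and the KAL-1 diets were measured at the 6 time points from Week 3 on. The labels put the number of animals killed per diet at 5 every 3 weeks, but do not say how many animals stand behind an array. The series text speaks of 3 replicates where a diet and time point has 1 array, so n below counts arrays and the spread of a diet difference is that between time points.

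Complexes I to IV, in the inner mitochondrial membrane, pass electrons from NADH and succinate to oxygen, several of them pumping protons across it, and complex V uses the proton gradient to make ATP. Most of their subunits are nuclear genes, many of them with promoter sites for nuclear respiratory factor 1 (NRF1), ETS factors such as GABP or oestrogen-related receptors (ERR). A few subunits have isoform genes used in heart and skeletal muscle, lung or testis. White adipocytes hold few mitochondria, brown and beige adipocytes and muscle fibres hold many, so muscle or brown fat taken with a subcutaneous depot brings these transcripts along.

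The sequences upstream of the genes were read from RefSeq (build GRCm38.p6) to show how often they hold these motifs. All 88 names matched a RefSeq gene, and 71 had at least 1 promoter in the table, 77 promoters in all, each reaching from 250 bases before to 50 bases after the start site. The NRF1 motif, GCGCA and GCGC with any base between them, was found on either strand in 19 of 77 promoters (24.7%, against 4.6% of 32851 promoters of all genes), and its palindromic form with T as the middle base in 7.8% against 1.0%. The ETS motif CCGGAAG was found in 22.1% against 8.9%, and the ERR motif AAGGTCA in 10.4% against 4.7%. The core of the YY1 motif, ATGGCG, was found in 29.9% against 8.9%. The SP1 motif GGGCGG was found in 44.2% against 35.7%, with a mean GC content of 58.2% in the promoters of the named genes and 53.8% in all. By complex, 8 of 37 complex I names with a promoter had an NRF1 match, 2 of 3 of complex II, 1 of 4 of complex III, 1 of 11 of complex IV and 6 of 16 of complex V, with the other names counted under the complex of their prefix. Any match to the NRF1, ETS or ERR motif was found for 32 of the 71 names with a promoter. A match describes the sequence and was not tested as a binding site. The promoters below are those with the most NRF1 matches (Ndufb4, Sdha), the ubiquitous isoform of a pair whose other member was the most variable gene (Cox6a1), a pair that encodes the same mature protein (Atp5g1, Atp5g2), and the gene with the smallest p in the diet comparisons (Atp5k). Each shows the 250 bases before the start site, read 5′ to 3′ on the strand of the gene, with capitals marking matches to the NRF1, ETS or ERR motif on either strand.
Ndufb4, chr16:37654369-37654618, strand -: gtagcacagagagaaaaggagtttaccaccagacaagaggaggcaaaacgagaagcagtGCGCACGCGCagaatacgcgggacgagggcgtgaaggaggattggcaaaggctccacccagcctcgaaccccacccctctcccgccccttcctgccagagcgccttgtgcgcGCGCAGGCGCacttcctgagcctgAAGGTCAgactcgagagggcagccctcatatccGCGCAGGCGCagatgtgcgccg
Sdha, chr13:74350241-74350490, strand -: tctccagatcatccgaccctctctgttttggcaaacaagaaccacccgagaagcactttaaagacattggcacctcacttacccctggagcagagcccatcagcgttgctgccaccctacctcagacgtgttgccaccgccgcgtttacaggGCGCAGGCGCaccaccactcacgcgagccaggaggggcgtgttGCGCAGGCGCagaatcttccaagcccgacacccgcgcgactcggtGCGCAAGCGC
Cox6a1, chr5:115348959-115349208, strand -: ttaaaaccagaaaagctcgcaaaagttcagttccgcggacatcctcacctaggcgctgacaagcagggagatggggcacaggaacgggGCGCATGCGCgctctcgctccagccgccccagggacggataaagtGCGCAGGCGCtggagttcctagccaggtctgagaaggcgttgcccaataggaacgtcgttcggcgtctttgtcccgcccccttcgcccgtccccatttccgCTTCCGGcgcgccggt
Atp5g1, chr11:96075632-96075881, strand -: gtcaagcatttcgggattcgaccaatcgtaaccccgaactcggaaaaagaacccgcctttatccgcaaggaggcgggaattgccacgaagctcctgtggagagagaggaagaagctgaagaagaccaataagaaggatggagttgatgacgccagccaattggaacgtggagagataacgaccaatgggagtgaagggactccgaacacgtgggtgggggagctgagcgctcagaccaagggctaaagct
Atp5g2, chr15:102671048-102671297, strand -: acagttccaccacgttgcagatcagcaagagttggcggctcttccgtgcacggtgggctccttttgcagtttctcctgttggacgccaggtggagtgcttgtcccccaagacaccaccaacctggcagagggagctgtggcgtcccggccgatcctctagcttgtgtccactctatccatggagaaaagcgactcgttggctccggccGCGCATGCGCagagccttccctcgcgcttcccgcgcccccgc
Atp5k, chr5:108434400-108434649, strand -: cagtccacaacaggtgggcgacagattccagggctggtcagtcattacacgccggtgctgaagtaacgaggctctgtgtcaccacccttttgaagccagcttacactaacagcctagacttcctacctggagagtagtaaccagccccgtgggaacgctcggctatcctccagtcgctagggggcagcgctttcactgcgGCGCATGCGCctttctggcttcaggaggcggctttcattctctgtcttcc
Ndufb4, an accessory subunit of complex I, had 3 NRF1 matches and 1 ERR match, and Sdha, the flavoprotein of complex II, had 3 NRF1 matches. Cox6a1 had 2 NRF1 matches and 1 ETS match, while Atp5g2 and Atp5k had 1 NRF1 match each in the 250 bases shown. Atp5k also had an ETS and an ERR match in the 50 bases after the start site, which are not shown. Atp5g1 had none of these motifs in the 250 bases.

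Levels are log2 values over the 75th percentile of the array, so 0 is the 75th percentile, and a level is compared only with the same gene on other arrays. Of the 88 genes, 85 were well above background on all 39 arrays and entered every test. The other 3 are isoforms known from other tissues: Cox4i2, the lung isoform of subunit 4, was well above background on 10 arrays, and the testis isoforms Cox8c and Cox7b2 on 3 and 1. The arrays themselves differed, since 49.3% to 87.8% of the probes were well above background and the 75th percentile lay between 107.2 and 1285.8 intensity units. Saturated spots occurred on at least 1 array for 41 of the 88 genes, most often for Cox6a1 (28 arrays), Atp5b (14), Atp5g3 (11) and Ndufa13 (10), so that their highest levels are too low by an unknown amount. White adipocyte markers were present throughout, with 8 of 9 well above background on all 39 arrays. A list of 13 skeletal muscle genes ranged in mean level from -4.17 to 7.46 over the arrays. The muscle creatine kinase gene Ckm was above 4 on 3 arrays, HF75 Week 3 (7.93), HFC Day 1 (6.38) and HF5 Week 12 (5.69), and just below it lay HFC Day 6 (3.75) and LFC Day 6 (2.81). The series' own table of log2 ratios matched the HF5 Week 12 array to its HF20 column (r = 0.999 across genes) and the HF20 Week 12 array to its HF5 column (r = 0.998), against r = 0.661 and 0.664 as named, so which dose the Ckm-high array of Week 12 belongs to is not settled, and the changes by dose are given with the 2 arrays exchanged for the members' medians, Cox6a2 and Atp5k. All other values by diet are as labelled.

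Subunits of the 5 complexes were mostly high or low together from array to array, and HF75 Week 3, an array with a high Ckm level, was the highest in each complex. For each array the level of every gene was set against its own mean over the 39 arrays, and the median over the genes of a complex was taken. The complexes parted on some arrays, as on LFC Week 18, with 0.29 and 0.35 for III and IV and -0.31, -0.82 and -0.49 for I, II and V. The median over all 88 genes was 2.52 on HF75 Week 3, 1.48 on HFC Day 1 and 0.46 on HF5 Week 12, while the other 36 arrays lay between -1.05 (HF20 Week 15) and 1.38 (HFC Day 6). The highest and the lowest array were therefore 3.57 apart on the log2 scale, with an SD of 0.77 over the 39 arrays and 0.61 over the 36. Complex II, which oxidises succinate and is shared with the citrate cycle, had the widest SD (1.17, and 1.01 without the Ckm-high arrays), and complex IV the narrowest (0.59 and 0.50). Complexes I, III and V had SDs of 0.85, 0.87 and 0.70. No gene of complex II was saturated on any array, against 14 of 37 in complex I, 6 of 7 in III, 7 of 15 in IV and 13 of 15 in V, and saturation narrows an SD, so the order of the SDs is uncertain. The value of complex IV also includes Cox4i2, Cox7b2 and Cox8c, which were not well above background on most arrays. The HF75 Week 3 array was the highest of the 39 for complex I (2.72), II (2.89), III (2.88), IV (1.62) and V (2.47), and it was also the array with the fewest probes well above background. Saturated spots were most frequent on the high arrays, with 31 members on HFC Day 6, 30 on HFC Day 1, 25 each on LFC Day 6 and LFC Week 12 and 20 on HF75 Week 3. A saturated spot has a ceiling that is lower on an array with a high 75th percentile, and this was 866.0 on HFC Day 6, 772.2 on HFC Day 1 and 338.9 on HF75 Week 3. Over the 47 members that were saturated on no array the median was 2.62 on HF75 Week 3, 1.95 on HFC Day 1, 1.69 on HFC Day 6 and 1.51 on LFC Day 6, the 4 highest of the 39. HF75 Week 3 was then still highest in each complex, but complexes III and V rest there on 1 and 2 genes. HF5 Week 12 was not high in this sense, with 0.40 to 0.54 over the 5 complexes, below several arrays without a high Ckm level.

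**Figure D1:**
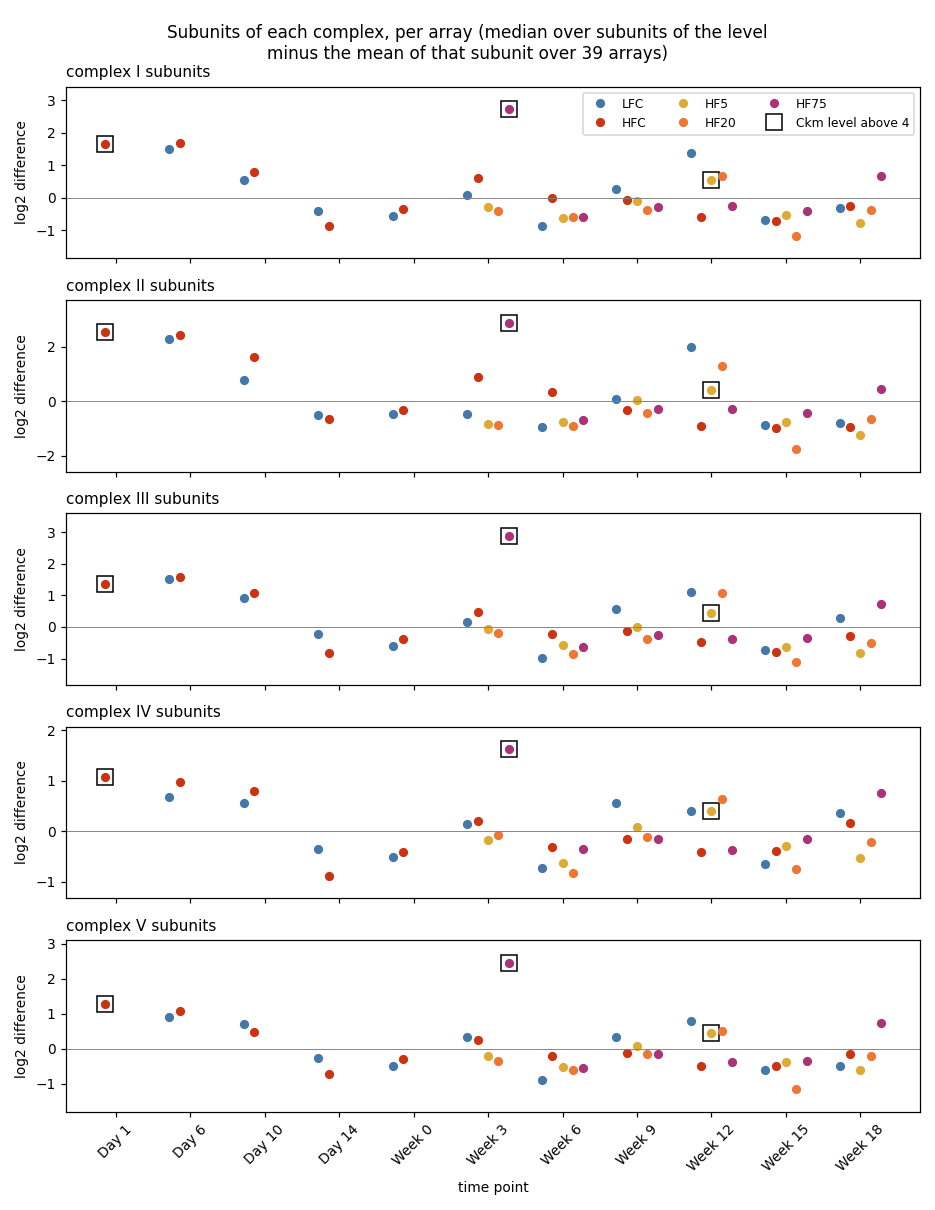
Median over the subunits of each complex (1 panel per complex) of the log2 level minus the mean of that subunit over 39 arrays, against time point, with 1 point per array coloured by diet. Black squares mark the 3 arrays with a Ckm level above 4. HF75 Week 3 is the highest point in every panel, and the 5 complexes show the same order of time points in outline, high on Day 1 and Day 6 and low on Day 14 and at Week 0.

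By diet, the median over the 88 genes had a mean of 0.09 ± 0.75 (SD, n = 10) in LFC, with a lowest value of -0.87, a median of -0.03 and a highest value of 1.34. HFC had 0.14 ± 0.78 (SD, n = 11, -0.77 to 1.48, median -0.09), HF5 -0.27 ± 0.42 (n = 6, -0.66 to 0.46, median -0.36), HF20 -0.34 ± 0.57 (n = 6, -1.05 to 0.65, median -0.33) and HF75 0.30 ± 1.17 (n = 6, -0.59 to 2.52, median -0.23). The ranges of the 5 diets overlapped. Without the Ckm-high arrays the means were 0.00 ± 0.67 in HFC, -0.41 ± 0.25 in HF5 and -0.15 ± 0.48 in HF75, and the spread within HF75 was smaller, its highest value being then 0.66 at Week 18. Complex II gave the widest contrasts within a diet, with HF75 at 2.89 on Week 3 and between -0.70 and 0.45 on its other arrays.

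The time course was seen in LFC and HFC alike, though each scan day held arrays of a single time point, so time and scan day cannot be told apart. On Day 6 the median over the 88 genes was 1.34 in LFC and 1.38 in HFC, on Day 10 it was 0.59 and 0.73, on Day 14 it was -0.33 and -0.77, and at Week 0 it was -0.51 and -0.34. From Week 3 on the values had no common direction, and LFC reached 1.13 at Week 12 between 0.30 at Week 9 and -0.68 at Week 15. The Day 6 arrays were the 2 with the highest means of brown and beige markers, 2.69 in LFC and 2.82 in HFC. There the uncoupling protein gene Ucp1 was at 6.06 and 6.49, and the muscle actin gene Acta1 was high as well, at 6.19 and 6.16.

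The mean of the 3 Ckm-high arrays was above that of the other 36 for nearly every subunit, carried by HF75 Week 3 and HFC Day 1, in a description that carries no test because Ckm chose the arrays. The difference of the means was above 0 for 83 of 88 genes, with a median of 1.55, while over 12910 genes well above background on all arrays the median was 0.00 and 50% were above 0. The 88 include Cox4i2 (-0.08), Cox7b2 (0.30) and Cox8c (1.04), complex IV genes that were not well above background on most arrays. Saturated spots stand in these means at their measured signal, so the difference is too small where the spot was saturated on Ckm-high arrays alone, too large where it was saturated on other arrays alone, and uncertain where both groups had saturated spots. It was above 0 for 37 of 37 genes of complex I (median 1.81), 4 of 4 of complex II (2.0), 7 of 7 of complex III (1.67), 11 of 15 of complex IV (1.04), 15 of 15 of complex V (1.53) and 9 of 10 of the other names (1.01). For 37 of 85 tested genes (43.5%) at least 2 of the 3 arrays lay above all 36 others, against 14.8% of all genes, and for Cox6a2 all 3 did, against 1.49% of all genes. Mean levels of the 13 skeletal muscle markers were 5.52, 6.23 and 7.46 on these arrays, with all 13 well above background, and -4.17 to 4.86 on the other 36, with 6 of 13 well above background on every one of them. The mean of the 8 brown and beige markers was -0.03 to 1.06 on the 3 arrays and -4.13 to 2.82 on the others, and Ucp1 was at -3.36 on HF75 Week 3. On HF75 Week 3, HFC Day 1 and HF5 Week 12, cardiac and slow muscle markers had means of 5.29, 2.84 and 0.43 (others -4.82 to -0.01). Macrophage markers had -2.27, -1.69 and -0.56 (others -0.60 to 2.42), and white adipocyte markers 1.80, 1.22 and 4.52 (others -0.05 to 5.04). How far muscle RNA accounts for the difference was not tested, and fewer cells of a type and less RNA per cell cannot be told apart in bulk tissue.

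**Figure D2:**
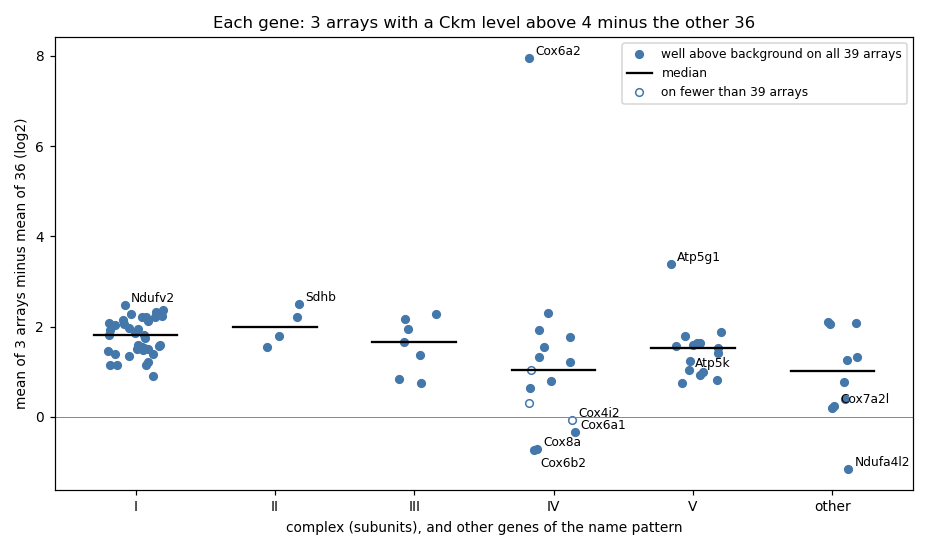
Difference in mean log2 level between the 3 arrays with a Ckm level above 4 and the other 36, with 1 point per gene, grouped by complex, and black bars for the median of each group. Open points are genes well above background on fewer than 39 arrays. Most points lie between 0.5 and 2.5, Cox6a2 stands at 7.96 and Atp5g1 at 3.39 (both lower bounds), and Cox8a, Cox6b2, Cox6a1, Cox4i2 and Ndufa4l2 lie below 0.

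In complex I, Ndufs1, which carries iron-sulfur clusters on the path from NADH, was at 6.51, 6.03 and 3.89 on HF75 Week 3, HFC Day 1 and HF5 Week 12, and between 1.85 and 6.00 with a median of 2.82 on the other arrays. Its ranges overlapped, since HF5 Week 12 lay within the others. Ndufv1, which binds NADH, was at 7.27, 5.63 and 4.95, and 6.24 on both Day 6 arrays. The difference of means was at least 2.37 for Ndufs1 and at least 2.12 for Ndufa4, a small protein first placed in complex I and later in complex IV, as each was saturated on 1 Ckm-high array and on no other. It was 1.51 for Ndufv1 and 1.74 for Ndufb8 (an accessory subunit of the membrane arm), each saturated on 1 Ckm-high array and 3 others. Over the 37 subunits it ran from 0.90 (Ndufa13) to 2.48 (Ndufv2, a core subunit next to Ndufv1). Ndufa13 was saturated on all 3 Ckm-high arrays and on 7 others, so that both of its means are too low.

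In complex II, Sdhb, the iron-sulfur subunit, was at 6.25, 6.09 and 3.11 on the 3 arrays, and between 0.89 and 5.79 with a median of 2.29 on the others. It had the next largest SD after Cox6a2 and Atp5k of all members (1.40, and 1.21 without the Ckm-high arrays), and a difference of 2.51. Sdha was at 4.18, 4.70 and 1.92, with a difference of 2.21, and it reached 4.16 and 4.13 on the Day 6 arrays of LFC and HFC. HF75 Week 3 and HFC Day 1 were thus above all the other arrays in both genes, while HF5 Week 12 lay inside their range. In complex III, the core proteins Uqcrc1 and Uqcrc2 and the Rieske iron-sulfur protein Uqcrfs1 had differences of 2.16, at most 1.94 and at least 2.29, with saturated spots on 1 or 2 arrays each, and with Uqcrc1 at 7.09, 6.23 and 3.69.

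In complex IV the genes diverged most, with Cox6a2 at the upper end and Cox8a and Cox6b2 at the lower. Cox6a2, the isoform of heart and skeletal muscle, had the largest SD of the 85 genes (3.02, and 2.19 without the Ckm-high arrays). It was at 7.57 on HF75 Week 3, 6.25 on HFC Day 1 and 5.35 on HF5 Week 12, and between -4.78 and 4.61 with a median of -2.10 on the others, so that the groups did not overlap. The difference of means was at least 7.96, since the spot was saturated on HF75 Week 3 and HFC Day 1 and on no other array. Next came HFC Day 6 (4.61) and LFC Day 6 (2.86), which were also next in Ckm. Cox6a1, the isoform of most other tissues, was at 6.30, 6.04 and 6.60 on the same 3 arrays and between 5.52 and 8.15 on the others, with a difference of -0.33 that is uncertain because the probe was saturated on 28 arrays. Cox8a, the ubiquitous isoform of subunit 8, was at 4.69, 4.29 and 6.07, and between 4.85 and 6.84 with a median of 5.76 on the others. HF75 Week 3 and HFC Day 1 were its lowest arrays, and the difference was -0.71 or lower, since the spot was saturated on 5 arrays, none of them Ckm-high. Cox6b2, known from testis, had -0.74. Other subunits lay above 0, with 0.65 for Cox4i1, 1.76 for Cox5a, 1.32 for Cox5b, at most 0.79 for Cox6c (saturated on 2 arrays, neither Ckm-high) and 1.22 for Cox7a2, the isoform of most tissues whose muscle partner Cox7a1 was left out by name. Cox4i2, the lung partner of Cox4i1, was not well above background on most arrays.

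Arrays with much Ucp1 differed in Cox6a2. HF20 Week 12 had Ucp1 at 6.52, Ckm at -2.78 and Cox6a2 at -0.02, above the Cox6a2 median of -2.10 on the 36 arrays. HFC Day 6, LFC Day 6 and LFC Day 10 came next in Ucp1 (6.49, 6.06 and 4.45). They had Ckm at 3.75, 2.81 and 0.21 and Cox6a2 at 4.61, 2.86 and 0.19. HFC Week 3 had Ucp1 at 3.37, Ckm at -6.88 and Cox6a2 at -3.94. The median over the 88 genes was 0.65 on HF20 Week 12, 1.38 on HFC Day 6, 1.34 on LFC Day 6, 0.59 on LFC Day 10 and 0.50 on HFC Week 3. HF75 Week 3 had Ucp1 at -3.36, Ckm at 7.93 and the highest median of all. Which cells these transcripts came from was not tested.

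In complex V, the genes of the membrane ring differed among themselves. Atp5g1, Atp5g2 and Atp5g3 each encode subunit c with a different leader peptide. Atp5g1 was at 7.31, 6.09 and 3.64 on HF75 Week 3, HFC Day 1 and HF5 Week 12, and between 0.63 and 3.64 with a median of 2.32 on the others, and its SD fell by the largest share of the 3 genes, from 1.15 to 0.56, without the Ckm-high arrays. HF75 Week 3 and HFC Day 1 lay well above all other arrays, and HF5 Week 12 was level with HFC Day 6 (3.64). The difference of means was at least 3.39 for Atp5g1, at least 1.63 for Atp5g2 and 0.82 for Atp5g3. Atp5g1 and Atp5g2 were saturated on HFC Day 1 alone, and Atp5g3 on all 3 Ckm-high arrays and 8 others. The catalytic subunits Atp5a1 and Atp5b had 1.63 and 0.74, with saturated spots in both groups of arrays (Atp5b on all 3 and 11 others, Atp5a1 on 2 and 4), and Atp5o, which links the head to the stalk, had at most 1.89, being saturated on 3 arrays, none of them Ckm-high. Atp5k, subunit e of the membrane part, had 1.04 and no Ckm-high array above all others.

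**Figure D3:**
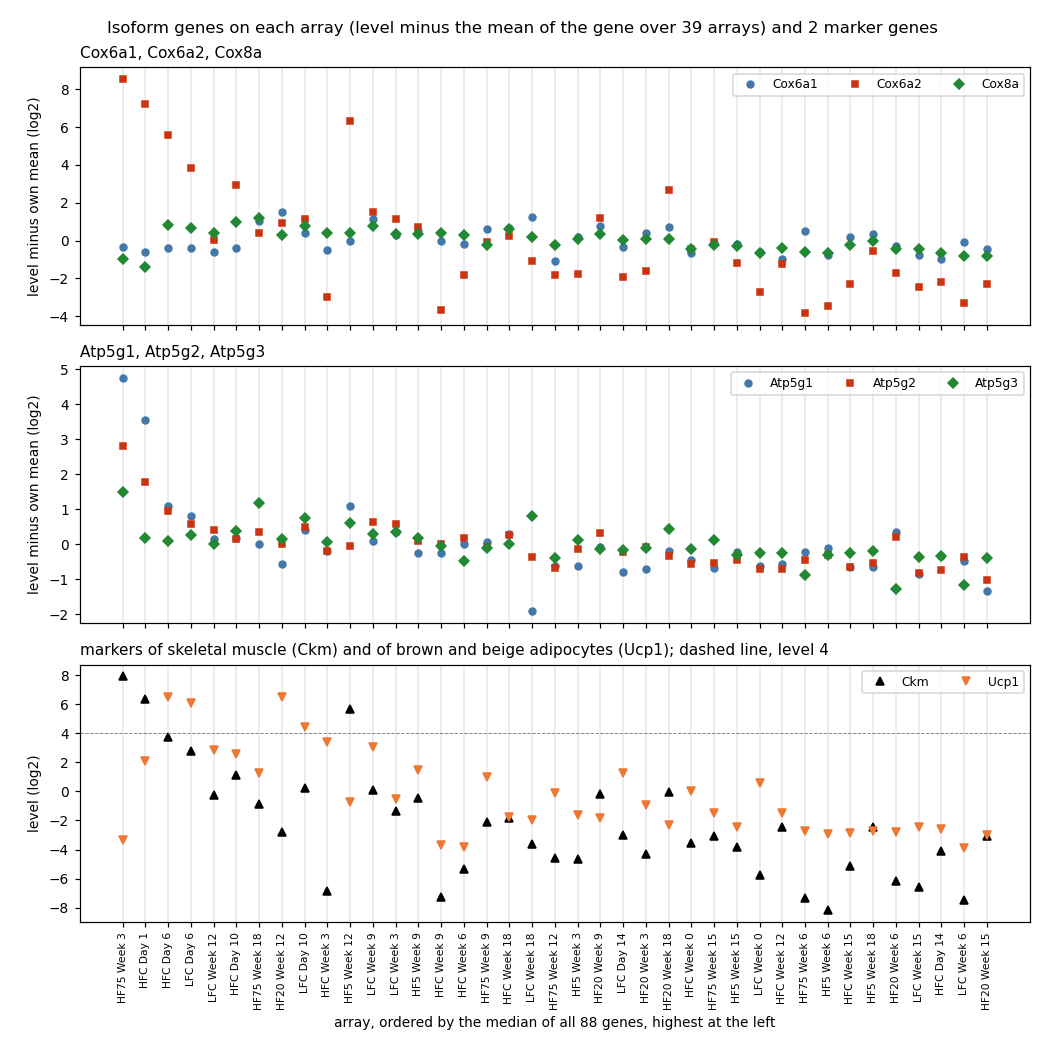
Log2 level minus the mean of the gene over 39 arrays for Cox6a1, Cox6a2 and Cox8a (top) and Atp5g1, Atp5g2 and Atp5g3 (middle), and log2 levels of the markers Ckm and Ucp1 (bottom), with arrays ordered by the median of all 88 genes. Cox6a2 is highest on the 3 arrays with a Ckm level above the dashed line at 4, Atp5g1 is highest on HF75 Week 3 and HFC Day 1, and Cox8a is lowest on HF75 Week 3 and HFC Day 1.

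The other end of the scale was held by Cox7a2l, which helps assemble supercomplexes (SD 0.35 over 39 arrays), Ndufaf2, a complex I assembly factor (0.45), and Ndufa13 (0.47, with saturated spots on 10 arrays, which narrow its SD). After Cox6a2, the largest SDs were those of Atp5k (1.59) and Sdhb. Ndufa4l2, a relative of Ndufa4 that is induced by low oxygen in other systems, went against the subunits. It was at 1.00, 0.95 and 1.48 on the 3 Ckm-high arrays and between 0.35 and 3.83 on the others, with a difference of -1.16 and overlapping ranges. Its lowest levels were on HFC Day 10 (0.35) and HFC Day 6 (0.51), arrays on which the subunits were high.

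The first question of the design was whether the high-fat diet changed these genes, and no member passed. limma called 0 of 85 members for HFC against LFC over 10 time points at an adjusted p under 0.05, and 0 of all 19876 genes (0%), and at an unadjusted p under 0.05 it gave 1 member (1.18%, Atp5k, lower in HFC) against 5.91% of all genes, of which 3.97% were lower and 1.93% higher. The median log2 change of the members was -0.07, beside -0.04 over all genes, with 24 of 85 above 0, and it turned to 0.06 under quantile scaling and 0.08 with normexp background correction. By complex the medians were -0.04 for I, -0.01 for II, -0.25 for III, -0.21 for IV and -0.12 for V. The lowest changes were those of Atp5k (-1.46), Uqcrb (-0.44, a small subunit of complex III) and Cox5a (-0.40), and the highest those of Atp5s (0.34), Ndufa4l2 (0.24) and Cox6b1 (0.20). From Week 3 to Week 18 alone the median was -0.12 (0.01 and 0.05 under those scalings), with -0.06 over all genes, 12 of 85 members above 0, and 0 members and 0% of 21092 genes called. There 2 members (2.35%) had an unadjusted p under 0.05, Atp5k lower and Ndufa4l2 higher in HFC, against 5.02% of all genes (2.87% lower, 2.14% higher). The extremes were Atp5k (-1.83), Cox6a2 (-1.27) and Uqcrb (-0.52) below, and Ndufa4l2 (0.71), Atp5s (0.33) and Cox6b1 (0.23) above. The sign of the median rests on Week 12, where LFC was high, since it was 0.10 over all time points and 0.19 over the late ones without that week. At Week 12 HFC and HF75 shared a slide and a scan day, while LFC, HF5 and HF20 were scanned on another day. The time point block does not remove such a split. Skeletal muscle markers had medians of -0.68 (12 of 13 below 0) and -1.62 (13 of 13) in these comparisons, and brown and beige markers -0.76 (7 of 7) and -1.06 (8 of 8). Macrophage markers had 0.69 and 0.39 (7 of 7 above 0 each time), lymphocyte markers -0.96 (7 of 7 below 0) and -1.60 (8 of 8), and white adipocyte markers 0.45 and 0.33 (8 of 9 above 0 each time). The part of these lists in the members' values was not tested.

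The second question was whether KAL-1 given with the high-fat diet changed them, and again limma called 0 members and 0% of genes at each dose. All dose comparisons share the HFC arrays, so their values are given side by side and are not independent. At an unadjusted p under 0.05 each dose had 1 member (1.18%, Atp5k each time, higher with KAL-1). Of all genes, 1.38% had such a p for HF5 (0.725% higher, 0.654% lower), 3.99% for HF20 (2.38% and 1.62%), 4.97% for HF75 (1.95% and 3.02%) and 4.53% for the doses together (2.4% and 2.13%). The median change of the members was -0.12 for HF5, -0.17 for HF20, 0.42 for HF75 and 0.05 for the doses together, while that of all genes was between 0.00 and 0.01. Under quantile scaling and with normexp correction, the HF75 median was 0.21 each time, and with normexp that of all genes was 0.21 as well. The HF20 median was -0.16 and -0.70 (all genes -0.09 and 0.31), and that of the doses together turned to -0.04 and -0.20. Without the HF20 Week 15 array, which had 4936 outlier spots, the HF20 median was -0.09. For HF75, 80 of 85 members were above 0, 37 of 37 in complex I (median 0.45), 4 of 4 in II (0.54), 7 of 7 in III (0.52), 10 of 12 in IV (0.32) and 15 of 15 in V (0.45). Without the Ckm-high arrays the HF75 median was 0.03 with 49 of 86 above 0 (Cox4i2 then entered the test), without Week 3 it was 0.13, and with arrays weighted by their quality it was 0.01. Skeletal muscle markers had a median of 3.00 in HF75 against HFC, with 13 of 13 above 0, and their mean level ran from -2.98 to 7.46 over the HF75 arrays and from -4.17 to 0.02 over the HFC arrays of the same weeks. The brown and beige list had 1.23 there, with 7 of 8 above 0. In HF5 and HF20 the muscle list had 2.30 and 1.90, again with 13 of 13 above 0, while the members' medians were below 0. Macrophage markers had medians of -0.45, -0.76 and -0.81 for HF5, HF20 and HF75 (7 of 7 below 0 each time), and white adipocyte markers had -0.43, -0.77 and -0.48 (7, 8 and 6 of 9 below 0). Lymphocyte markers had 0.76, 1.54 and 0.25 (8, 8 and 6 of 8 above 0). The part of these lists was not tested. With the 2 Week 12 arrays exchanged, the members' medians were -0.05 for HF5 and -0.22 for HF20.

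Single genes spread widely around these medians. For HF75 the largest changes were those of Cox6a2 (2.48, SE 1.44, limma adjusted p = 0.875) and Atp5k (1.85). Without the Ckm-high arrays Cox6a2 had 0.82 (SE 0.83). The lowest were Ndufa4l2 (-0.38), Cox8a (-0.36), and Cox6b2 and Cox4nb (-0.15 each). For HF5 they were Cox6b1 (-0.43), Ndufab1 (-0.42, the mitochondrial acyl carrier protein) and Cox7c (-0.39) below, and Cox6a2 (1.98) and Atp5k (1.85) above. For HF20 they were Ndufb6 (-0.78), Cox6b1 (-0.57) and Cox7c (-0.56) below, and Cox6a2 (1.83), Atp5k (1.43) and Cox6a1 (0.58) above. With the 2 Week 12 arrays exchanged, Cox6a2 had 1.09 for HF5 and 2.73 for HF20, and Atp5k 1.46 and 1.82, with none called by limma. For the doses together the lowest were Ndufb6 (-0.29), Cox6b1 (-0.28) and Ndufa4l2 (-0.28), and the highest Cox6a2 (2.10) and Atp5k (1.71). Among the catalytic and core subunits the changes in HF75 were 0.59 for Ndufs1, 0.42 for Sdha, 0.65 for Sdhb, 0.70 for Uqcrc1, 0.42 for Uqcrc2, 0.49 for Cox5a, 0.33 for Atp5a1 and 0.33 for Atp5b, each with an SE of 0.33 to 0.60.

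**Figure D4:**
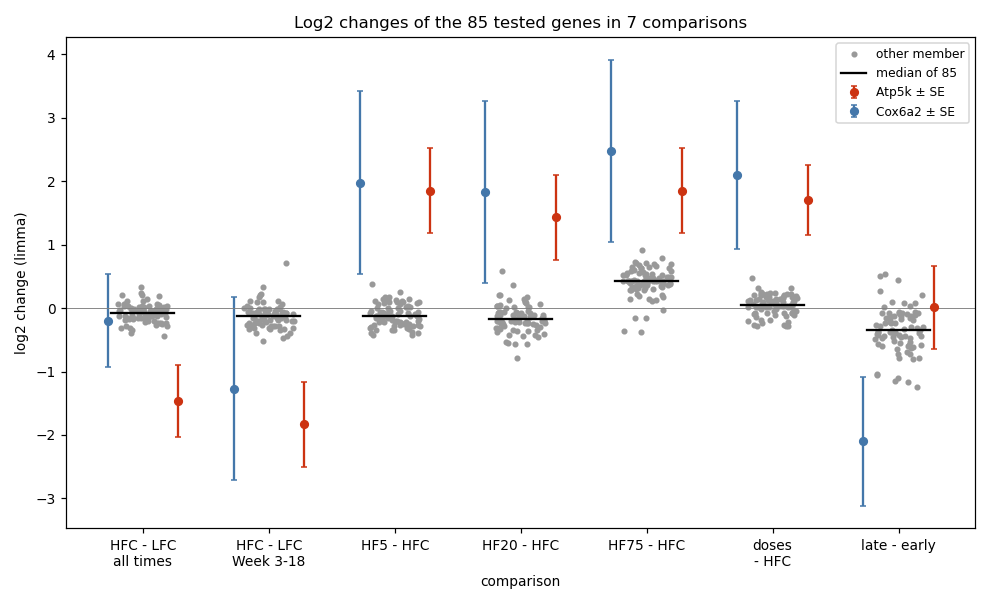
Log2 change of the 85 tested genes (limma) in 7 comparisons, with grey points for genes, a black bar for their median, and Atp5k (red) and Cox6a2 (blue) shown with their SE. The medians lie between -0.35 and 0.42, the cloud of HF75 against HFC sits above 0, and Atp5k is below 0 for HFC against LFC and above 0 for each dose against HFC.

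Atp5k gave the smallest unadjusted p of the members in each of these diet comparisons, without passing the adjusted threshold. Its level in LFC was 2.21 at the lowest (Week 6), 5.47 in the median and 9.10 at the highest (Week 18), and in HFC 3.01, 4.07 and 5.31. HF5 ran from 3.21 to 6.90 (median 6.21), HF20 from 2.63 to 7.26 (median 5.49) and HF75 from 2.60 to 7.64 (median 5.98). All diets overlapped, with HFC in the lower part of the range of the others. HFC against LFC was -1.46 (SE 0.57, p = 0.0249, limma adjusted p = 0.800), with means of 4.04 ± 0.85 and 5.51 ± 1.91 (SD, n = 10 each), differences at single time points from -4.53 to 1.01, and HFC higher in 4 of 10. HF5, HF20 and HF75 against HFC were 1.85 (SE 0.67), 1.43 (SE 0.67) and 1.85 (SE 0.67), above 0 at 6, 4 and 5 of 6 time points, with limma adjusted p values of 1, 0.990 and 0.875. The doses together had 1.71 (SE 0.55, p = 0.00475, limma adjusted p = 1), above 0 at 5 of 6 time points. The array with the highest level, LFC Week 18, was also the one with the lowest 75th percentile (107.2), Atp5k was saturated on 7 arrays, and without Week 18 the change of HFC against LFC was -1.12 over all time points and -1.29 over the late ones. With arrays weighted by quality the change over all time points was -0.40, and with normexp correction and without the HF20 Week 15 array that of HF20 against HFC was 0.42. At Week 6 the 5 diets were close together and low, between 2.21 and 3.21.

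Ndufa4l2 had the only other unadjusted p under 0.05 in the diet comparisons, for HFC against LFC from Week 3 to Week 18. Its level over those weeks was 1.24, 3.37, 3.30, 2.66, 2.60 and 2.50 in HFC and 1.07, 3.37, 1.87, 1.41, 2.26 and 1.42 in LFC. The diets were equal to 2 decimals at Week 6, HFC was the higher at the other time points by up to 1.43, and the ranges overlapped. The change was 0.71 (SE 0.33, p = 0.0402, limma adjusted p = 0.856), and over all 10 time points it was 0.24 (SE 0.30). Its change for HF5, HF20 and HF75 against the same HFC arrays was -0.29, -0.16 and -0.38.

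**Figure D5:**
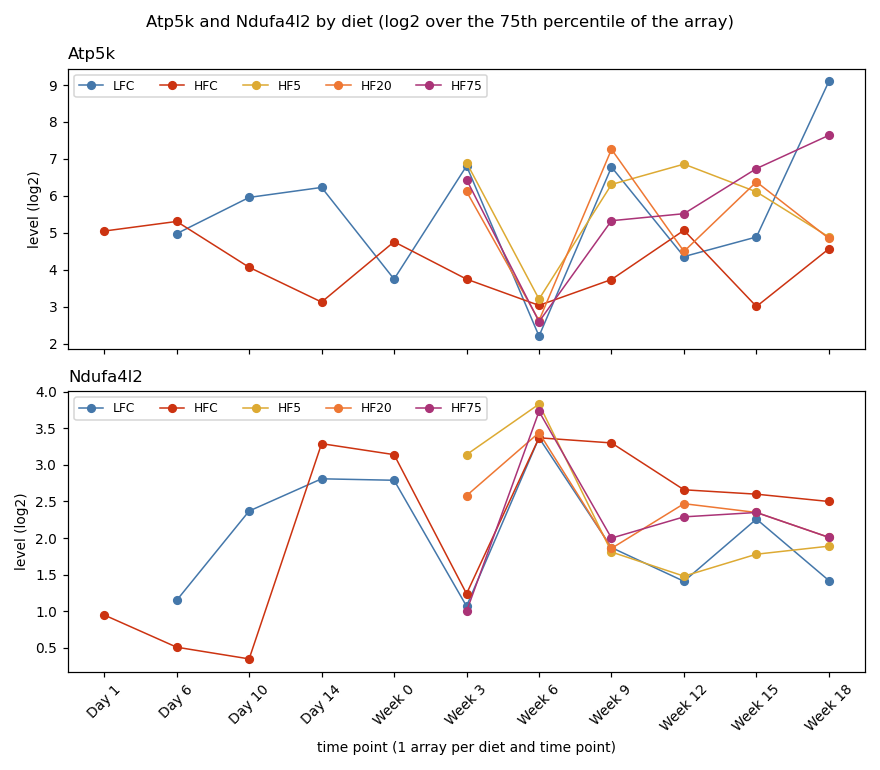
Log2 level over the 75th percentile of the array for Atp5k (top) and Ndufa4l2 (bottom) against time point, 1 line per diet and 1 array per point. HFC lies at the lower edge for Atp5k at Weeks 3, 9, 15 and 18, all diets meet between 2.21 and 3.21 at Week 6, and LFC reaches 9.10 at Week 18, while for Ndufa4l2 HFC is at or above LFC from Week 3 on.

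Changes with time were the third comparison. Late (Week 3 to Week 18, 12 arrays) against early time points (8 arrays) of LFC and HFC gave a median of -0.35 for the members, beside -0.02 for all genes, with 74 of 85 below 0, and limma called 0 members against 0.221% of 19876 genes. By complex the medians were -0.40 for I, -0.96 for II, -0.35 for III, -0.25 for IV and -0.35 for V. At an unadjusted p under 0.05, 5 members (5.88%) were lower late, against 6.99% of all genes, while no member was higher late, against 6.24%. Among them were the core subunits Ndufv2 (-1.10, SE 0.44, limma adjusted p = 0.296) and Ndufs1 (-1.04) of complex I, and Sdha (-1.15) and Sdhb (-1.25) of complex II. The lowest changes were those of Cox6a2 (-2.10), Sdhb and Ndufa10 (-1.17, an accessory subunit of complex I), and the highest those of Uqcrb (0.53), Cox6c (0.51) and Cox6a1 (0.45). Sdhb was 3.74 ± 1.54 (SD, n = 8) early and 2.49 ± 1.09 (SD, n = 12) late. Without Day 6, the members' median was 0.01. Skeletal muscle and brown and beige markers had medians of -2.41 (13 of 13 below 0) and -1.75 (7 of 7), with mean levels of -2.85 to 4.86 and -3.53 to 2.82 on the early arrays, and -4.17 to 1.10 and -3.86 to 1.66 on the late ones. White adipocyte markers had -0.67 (8 of 9 below 0), macrophage markers 0.64 (4 of 7 above 0) and lymphocyte markers 0.66 (6 of 7 above 0). The part of these lists was not tested. The fit treats arrays of a time point as independent, although they deviated together, which makes its p values too small. No scan day was shared by different time points, so a change with time and one with scan day cannot be told apart. With the time point as a random block, 0 members passed and Ndufv2 had a limma adjusted p of 0.541.

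From Week 3 to Week 18, with the diet as a covariate, the members' median change per week was -0.03, beside 0.00 over all genes, and 72 of 85 were below 0. limma called 0 members against 0.0901% of 21092 genes, and at an unadjusted p under 0.05 it gave 14 (16.5%), all falling, against 15.3% of all genes (6.66% falling, 8.63% rising). The smallest p was that of Ndufaf3, an assembly factor of complex I, at -0.10 per week (SE 0.02, p = 0.000258, limma adjusted p = 0.0977). Here too the arrays of a time point were treated as independent, and with the time point as a random block the limma adjusted p of Ndufaf3 was 0.819 and 0 members passed. Time and scan day cannot be told apart here either. Other low values were -0.09 for Ndufa10, Uqcrb and Sdhc (a membrane anchor of complex II), and the highest were 0.08 for Atp5k, 0.03 for Cox6a1 and 0.03 for Cox6a2. Complex IV stood at a median of 0.00, with 6 of 12 genes below 0, and complex II at -0.05, with 4 of 4. Without the Ckm-high arrays the median over the members was 0.00, with 37 of 86 above 0, and 7 members had an unadjusted p under 0.05 against 14.5% of all genes. Without Week 3 limma called 7 members (8.24%, against 12.8% of all genes, adjusted p from 0.0145 to 0.0428), while without the Ckm-high arrays it called 0. The cause was not tested. Of the 7 members, Atp5g3 (0.08), Atp5k (0.22), Atp5l2 (0.11) and Cox7c (0.13) rose, and Atp5sl (-0.10), Ndufa4l2 (-0.10) and Ndufaf3 (-0.11) fell.

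The genes around the respiratory chain were read in the same way, from lists of other mitochondrial genes. For late against early time points, 13 of 13 citrate cycle genes were below 0 (median -0.83, 7 of them at an unadjusted p under 0.05, against 6.99% of all genes), as were 5 of 5 tested electron carriers and complex III genes outside the name pattern (-0.58) and 20 of 20 assembly factors (-0.43). Regulators of mitochondrial biogenesis had -0.11 (8 of 13 below 0), and cytoplasmic ribosomal proteins went the other way, with 0.36 and 76 of 90 above 0. For HF75 against HFC, the citrate cycle had 0.40 (12 of 13 above 0), the electron carriers 0.57 (5 of 5), the assembly factors 0.37 (17 of 20) and the ribosomal proteins 0.26 (76 of 90). These lists had, in HFC against LFC with the early time points included, 0.05, 0.15, -0.05 and -0.24. The mean level of the citrate cycle genes was 3.30, 5.29 and 5.51 on the 3 Ckm-high arrays and 1.45 to 5.05 on the others, and that of the ribosomal proteins 4.00 to 4.55 and 3.59 to 5.06. No gene of the first 3 of these lists had an adjusted p under 0.05 in these comparisons (limma, lowest 0.225). Ndufaf1 to Ndufaf4 are counted among the assembly factors as well as among the members.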

How the data were processed

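RNA of subcutaneous adipose tissue was hybridised to Agilent 1-colour whole-genome mouse arrays, 1 per diet and time point. Per the file headers, the deposited intensity values were made with Agilent Feature Extraction 10.5.1.1 (the submitters' processing notes name version 9.1), which subtracted background and removed spatial trends. A deposited table of log2 ratios, taken by the authors against LFC at each time point, served as an alternative. Here, spots with outlier flags were left out, spots of a probe were averaged, and the level was log2 of the processed signal minus log2 of the 75th percentile of the array. The brightest probe stood for a gene name. A gene entered a test when the number of arrays with its probe well above background reached the size of the smallest diet group in the fit, and genes were tested with limma 3.58.1 in R 4.3.3, with Benjamini-Hochberg adjustment over all of them and a threshold of 0.05. The scripts were tested on simulated data. Diet comparisons had the time point, given by the labels, as a block: arrays of the same time point deviated together (median r = 0.23 over 60 pairs across genes, -0.49 to 0.75) more than others (median -0.04 over 300 pairs). The change per week, and late against early time points of LFC and HFC, had diet as a covariate and took the arrays of a time point as independent. Each scan day held arrays of a single time point, so time on the diet and scan day cannot be told apart in them. At Day 6, Week 6 and Week 12 the diets were not all scanned on the same day. The number of arrays limits the precision.

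The members and the gene lists were chosen with earlier results of these data known. Named in the text were 22 fixed subunits, the members with an adjusted p under 0.05, the 3 with the highest and the 3 with the lowest change in each comparison, and the 3 with the largest and smallest SD. Other genes in the text, such as Atp5g2, Ndufv2 and Ndufaf3, were chosen after their values were seen. Alternatives covered background correction, scaling, filters, probes, moderation, blocks, array weights, an unmoderated test, the deposited ratios, exchange of the Week 12 arrays, and leaving out arrays or time points. Leaving out the HF20 Week 15 array, which had 4936 outlier spots, the time point as a random block, and the values over members never saturated were chosen after seeing the data. Protein sequences were not used here. Some results that the naming rule takes are not reported here.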

Additional observations from a re-analysis of the deposited data

Results flagged for a closer look

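On the array of HF75 Week 3, many subunits stood apart from the other 5 arrays of that diet. The complex II value was 2.89, with 0.45 on the nearest array. Levels were 6.51 for Ndufs1, 4.18 for Sdha, 6.25 for Sdhb, 7.09 for Uqcrc1, 7.33 for Uqcrc2, 7.82 for Cox5a, 7.47 for Cox5b, 7.57 for Cox6a2, 7.55 for Atp5a1, 7.63 for Atp5o and 7.31 for Atp5g1, where the nearest array of HF75 lay at 3.37, 1.80, 3.50, 4.31, 4.60, 5.33, 5.75, -0.54, 5.45, 5.10 and 2.62. On HF5 Week 12, Ndufs1 (3.89), Uqcrc2 (4.78), Cox5a (5.96) and Atp5g1 (3.64) stood above the other HF5 arrays. Both arrays were among the 3 with a Ckm level above 4. On HF20 Week 12, Ndufv1 (6.09) and Ndufa4 (4.92) stood above the other HF20 arrays, with Ckm at -2.78 and Ucp1 at 6.52. Cox8a was apart on HF75 Week 18, at 6.84 against 5.45 on the nearest array. In all, 19 of 112 groups of 6 to 10 arrays had such an array, where chance flags about 1 in 20 groups, which is 5.6, and the genes of an array are not independent.

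The HFC Day 1 array entered no comparison of diets or times by limma, as no other diet had that time point. Except for complex III (1.37 against 1.52), its values lay above the highest LFC array, at 1.66 for complex I (1.5 in LFC), 2.54 against 2.28 for complex II, 1.07 against 0.68 for complex IV, 1.29 against 0.90 for complex V and 1.48 against 1.34 for all 88 genes. It was one of the Ckm-high arrays, and 30 members were saturated there, against 25 on the LFC arrays of Day 6 and of Week 12.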

How the results depend on the processing

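The 8 member counts and 8 member medians were recomputed 244 times without leaving out a time point, and 241 values stayed within 1 SD between time points (medians) or within 1.5 times (counts), as did 110 of 112 with a time point left out. Some medians among the 241 could not move. Changing the moderation or dropping the block leaves log2 changes nearly as they were, and exchanging the Week 12 arrays leaves HFC against LFC unchanged. That SD was 0.413 to 0.847 for the diet medians, wider than the medians themselves, so a median could lose its size or turn its sign within it, as HF75 did with arrayWeights (0.42 to 0.01). With normexp correction, 6 members passed for HF20 against HFC (Cox6b2 higher, Cox6c, Cox7a2, Cox8a, Ndufb3 and Ndufb6 lower), where 37.1% of all genes did. With normexp and without the HF20 Week 15 array 4 passed (Cox6b2, Cox7a2, Ndufb3 and Cox7c), against 38.8% of all genes. With arrayWeights, 1 member (Ndufaf3, 1.18%) passed for the change per week, against 2.26% of all genes. Leaving out a time point gave 0 to 7 members for the change per week, with 7 without Week 3 (8.24%, against 12.8% of all genes) and 1 (Ndufaf3) without Week 12 (1.16%, against 0.198%). The cause was not tested. Over all genes, the count for the change per week (19) ran from 1 to 476 and, with a time point left out, from 0 to 2723, and that for late against early (44) from 1 to 281. With the time point as a random block, 1 gene and 0 members passed in each of these.

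Without the time point as a block, the members' medians for HFC against LFC (all and late time points), HF5, HF20, HF75 and the doses together were -0.07, -0.12, -0.12, -0.17, 0.42 and 0.05, as with it, and 0 members passed. With 1 array per diet and time point, dropping the block can hardly move a log2 change, so equal medians are no check. Medians with a time point left out ran from -0.19 to 0.10, -0.34 to 0.19, -0.32 to 0.03, -0.44 to 0.01, 0.13 to 0.63 and -0.07 to 0.18 in the same order, from -0.05 to 0.01 for the change per week, and from -0.64 to 0.01 for late against early. The sign turned without Week 12 for both HFC comparisons and the doses together, without Week 3 for HF5, HF20 and the change per week, and without Day 6 for late against early. Other alternatives turned it for HFC against LFC (up to 0.12, arrayWeights; late, 0.15, scan day as a block) and for the doses together (down to -0.20). Normexp took the members' HF20 median to -0.70 (-0.75 without the Week 15 array) and moved the median of all genes to 0.31 for HF20, 0.21 for HF75 and 0.17 for the doses together, and to -0.14 and -0.22 for HFC against LFC. Atp5k kept its sign under all of them, from -1.96 to -0.40 for HFC against LFC (early and late) and from -2.36 to -1.20 (late alone), from 0.42 to 1.88 for HF20, and from 1.23 to 2.10 for the doses together. Not run for the change per week and late against early were the scan day as a block and the deposited ratios, and the slide as a block could not be estimated for the fits over LFC and HFC alone. Saturation bounds the highest levels of 41 members.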
